A study of Mus musculus with 18 samples.

Results

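The 10 genes of mitochondrial fusion and fission, Mfn1, Mfn2, Opa1, Oma1, Yme1l1, Dnm1l, Fis1, Mff, Mief1 and Mief2, were taken by symbol from 46983 genes measured in mouse hindlimb muscle, and each matched 1 row. Their RNA was compared in 5 fasted MKO, 4 fasted WT, 5 fed MKO and 4 fed WT muscles. MKO mice carried PGC-1β loxP/loxP alleles and a Cre transgene driven by the human skeletal actin (HSA) promoter, which removes exons 4 to 6 of Ppargc1b, the gene of the coactivator PGC-1β, in skeletal muscle fibers, while other cells of the muscle keep it. WT mice carried the loxP/loxP alleles without Cre. All mice were adult males of the C57Bl6/J strain. Fasted mice had no food for 24 h and fed mice ate freely. By the labels the muscle was quadriceps, and by the methods of the study Gastrocnemius. Each library came from 1 mouse.

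Mitochondria form a network that is remodelled by membrane fusion and membrane division. Fusion of the outer membrane is carried out by the mitofusins Mfn1 and Mfn2 and that of the inner membrane by Opa1, a dynamin-like GTPase whose long form is cut by the proteases Oma1 and Yme1l1. Fission is carried out by Dnm1l (DRP1), a cytosolic GTPase that is drawn to the outer membrane by the adaptors Mff, Mief1 and Mief2, and Fis1 is a further outer membrane protein of this pathway. In muscle, where mitochondria lie packed between the myofibrils, Mfn2 is also known as a gene that PGC-1 coactivators activate together with estrogen-related receptors.

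Levels were read as TPM, a share of a library's transcripts that is corrected for gene length, so that levels of different genes can be set side by side. Transcripts of the mitochondrial genome took 61.5% to 81.3% of the TPM of a library. This share was 61.5% to 67.9% in fasted MKO, 70.8% to 81.3% in fasted WT, 67.3% to 70.4% in fed MKO and 74.3% to 75.0% in fed WT muscle. TPM sum to the same total in every library, and a difference as deposited therefore holds the change of this share as well. The genes were therefore also tested relative to the median gene of each library (median scaling). Values below are as deposited unless another scale is named. The median log2 change of all 12111 genes tested was 0.31 for MKO against WT in fasted muscle and 0.25 in fed muscle as deposited. WT fasted replicate 4 stood apart, with 81.3% mitochondrial transcripts and 10729 genes at 0.5 TPM or more, against 11180 to 11338 in the other fasted WT libraries. Ppargc1b read 0.84 ± 0.27 TPM in fasted MKO, 1.117 ± 0.31 TPM in fasted WT, 2.13 ± 0.27 TPM in fed MKO and 1.71 ± 0.27 TPM in fed WT muscle (SD), and a gene total that includes the exons left in place does not check the deletion. Fewer cells of a type and less RNA per cell cannot be told apart in whole muscle.

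Opa1, Mff, Yme1l1 and Mief1 are shown first by the 120 bases just before their RefSeq start sites. Mff, Yme1l1 and Mief1 were called with fasting on both scales in 1 genotype or more. Opa1 had the 1 called difference between genotypes relative to the median gene, and all of them hold a searched motif. Oma1, called with fasting in both genotypes, and Dnm1l, called in MKO muscle relative to the median gene, held none of the searched motifs and are not shown. Capitals mark matches, on either strand, to CGCATGCG (the core of the NRF-1 motif) or CGGAAG (the core of the GABP motif), and the motifs do not overlap each other. The sequences are RefSeq's, on build GRCm38.p6, read 5′ to 3′ on the strand of the gene.
Opa1, chr16:29579214-29579333, plus strand: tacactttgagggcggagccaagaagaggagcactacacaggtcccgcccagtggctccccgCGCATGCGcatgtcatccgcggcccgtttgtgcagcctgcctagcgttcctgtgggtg
Mff, chr1:82724770-82724889, plus strand: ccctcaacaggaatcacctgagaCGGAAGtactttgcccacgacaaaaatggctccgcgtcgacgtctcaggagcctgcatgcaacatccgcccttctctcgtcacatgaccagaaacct
Yme1l1, chr2:23156385-23156504, plus strand: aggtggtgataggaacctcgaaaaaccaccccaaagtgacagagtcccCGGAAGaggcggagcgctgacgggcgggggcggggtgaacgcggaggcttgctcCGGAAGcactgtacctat
Mief1, chr15:80233960-80234079, plus strand: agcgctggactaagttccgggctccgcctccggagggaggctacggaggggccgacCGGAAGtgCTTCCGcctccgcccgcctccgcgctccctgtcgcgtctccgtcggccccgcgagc

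All 10 genes had a promoter entry. CGGAAG stood in the 120 bases of 5 of them (Mfn1, Yme1l1, Fis1, Mff and Mief1), against 9.2% of 32851 promoters of the same length in the table. CGCATGCG stood in that of Opa1 alone among the 10, against 1.16% of all promoters, and lay 58 to 51 bases before the start site. CACGTG, the E-box bound by clock and lysosomal regulators, stood in that of Mief2 alone, against 3.66% of all. AAGGTCA, the half-site of estrogen-related receptors, and GTAAACA, the FoxO motif, stood in none of the 10, against 1.81% and 1.36% of all promoters. These are letter matches in a short window, and no binding was measured. On GRCm38 the 4 genes shown are protein-coding and span chromosome 16 bases 29579334 to 29654884 (Opa1), chromosome 1 bases 82724890 to 82752394 (Mff), chromosome 2 bases 23156369 to 23199260 (Yme1l1) and chromosome 15 bases 80234018 to 80253371 (Mief1) in the GENCODE annotation. The bases shown for Yme1l1 lie inside its GENCODE span and those of Mief1 reach into it, so the RefSeq and GENCODE start sites differ there. Oma1, the member that fell with fasting in both genotypes, spans chromosome 4 bases 103313812 to 103371868.

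The order of levels was much the same in the 4 groups, with Mfn2 far above the other 9 genes and Mief1 at the bottom. Mfn2 averaged 92.7 ± 6.63 TPM in fasted MKO, 85.6 ± 10.97 TPM in fasted WT, 88.6 ± 7.27 TPM in fed MKO and 79.3 ± 8.55 TPM in fed WT muscle (SD, n = 5, 4, 5 and 4, as in all means below). No library value of Mfn2 overlapped those of the next gene in any group, and over the 18 libraries its mean exceeded that of 96.6% of the genes tested. Mief1 averaged 7.12 ± 0.724 TPM in fasted MKO, 6.29 ± 0.990 TPM in fasted WT, 5.45 ± 0.248 TPM in fed MKO and 5.09 ± 0.368 TPM in fed WT muscle, at 60.5% of the genes tested. Between them, Mfn1, Fis1, Dnm1l, Opa1 and Mief2 formed a middle group of 19.1 to 34.8 TPM by group means, in which each neighbour in the order overlapped the next. Mff followed at 14.3 to 19.8 TPM and Yme1l1 at 12.8 to 17.6 TPM. These 2 genes did not overlap in fed muscle of either genotype and overlapped in fasted muscle of both. Oma1 was ninth in each group, at 7.52 to 11.7 TPM, and its values overlapped those of Mief1 in fasted muscle only.

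**Figure D1:**
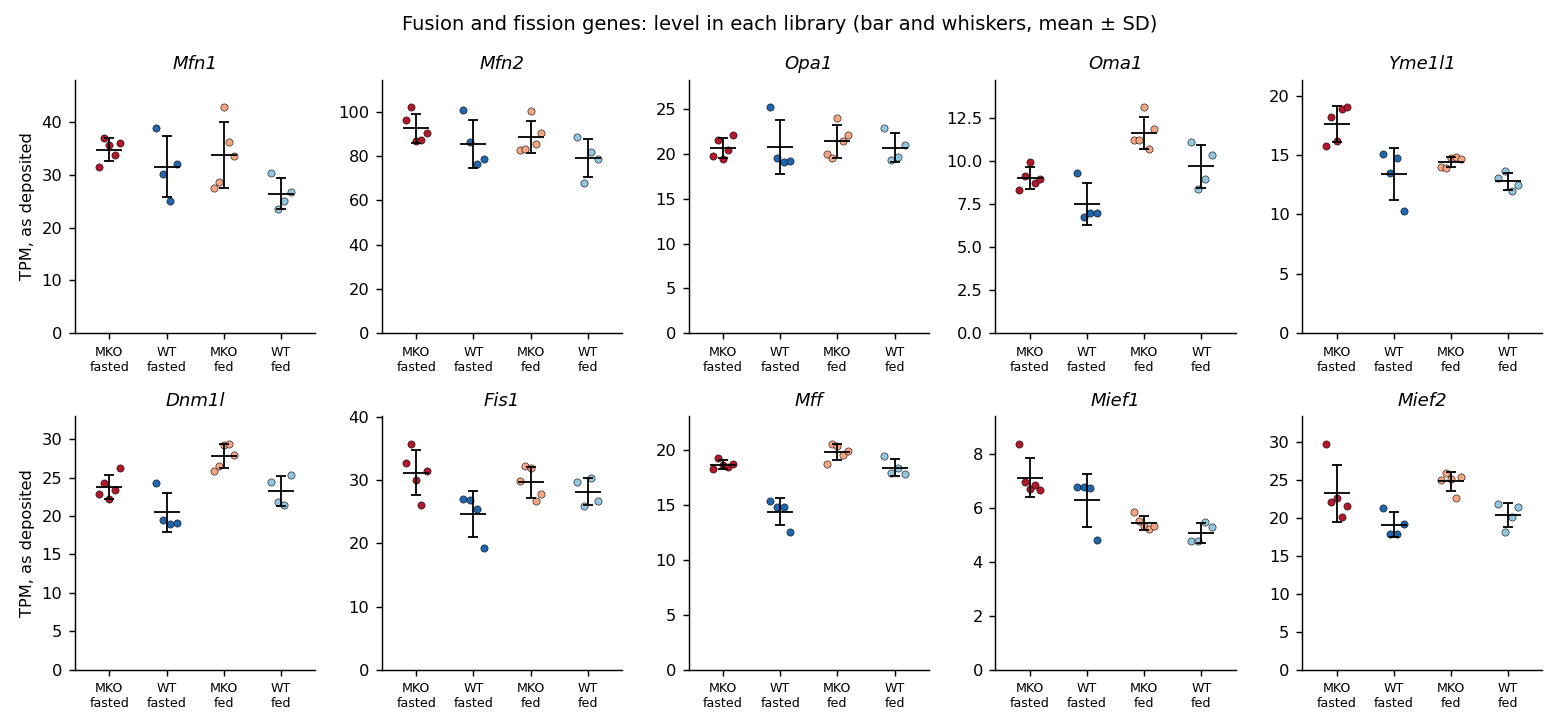
Level of each of the 10 genes in TPM as deposited (y axis, from 0) in fasted MKO, fasted WT, fed MKO and fed WT libraries (x axis). Each point is 1 library, and the bar with whiskers is the mean ± SD of 5, 4, 5 and 4 libraries. Mff lay between 18.2 and 19.2 TPM in fasted MKO libraries and between 12.5 and 15.3 TPM in fasted WT libraries.

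In fasted muscle, TPM of Yme1l1, Fis1, Mff and Mief2 were higher in MKO than in WT, by 1.21-fold to 1.32-fold, and none of these 4 differences was left relative to the median gene of the library, where Opa1 was the 1 gene called and was lower. The log2 differences of the 10 genes as deposited ran between 0.00 (Opa1) and 0.40, with a median of 0.25, against a median of 0.31 over all genes tested. The 4 genes called higher have to be read against 38.9% of all genes called higher in the same test (limma, Benjamini-Hochberg adjusted p under 0.05). Called lower were 0 members, against 0.528% of all genes. None was lower at an unadjusted p under 0.05, against 117 of all 12111 genes. In TPM recomputed without mitochondrial genes none of the 4 was called, and Mfn2, Opa1 and Mief1 were called lower (log2 -0.33, -0.45 and -0.26, limma adjusted p of 0.0361, 0.00967 and 0.0426). On that scale 1111 of 12098 genes were called lower and 191 higher.

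Mff, the adaptor that recruits Dnm1l, read 18.2, 19.2, 18.6, 18.4 and 18.7 TPM in fasted MKO muscle, against 15.3, 14.8, 14.8 and 12.5 TPM in fasted WT muscle. Every MKO library exceeded every WT library, and the 5 MKO values spanned a narrow range. The log2 difference was 0.38 ± 0.08 (SE), a 1.301-fold change, with an adjusted p of 0.00184 in limma. Relative to the median gene it was 0.06 ± 0.06, with a 95% interval of -0.07 to 0.19.

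Yme1l1, the inner membrane protease that cuts Opa1 under resting conditions, read 15.8, 18.2, 16.2, 18.8 and 19.1 TPM in fasted MKO muscle, against 15.1, 13.5, 14.8 and 10.3 TPM in fasted WT muscle. The groups did not overlap, and the lowest value was that of WT fasted replicate 4. The log2 difference was 0.40 ± 0.10 (SE; limma adjusted p = 0.00733) as deposited and 0.08 ± 0.08 relative to the median gene.

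Fis1, an outer membrane protein of the fission pathway, read 32.7, 35.8, 30.0, 26.1 and 31.4 TPM in fasted MKO muscle, against 27.0, 26.9, 25.4 and 19.3 TPM in fasted WT muscle. MKO replicate 4 lay within the WT range. Its log2 difference of 0.34 ± 0.11 (SE; limma adjusted p = 0.0223) became 0.23, with an adjusted p of 0.0814, without WT fasted replicate 4, and 0.29, with an adjusted p of 0.0605, without MKO fasted replicate 2.

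Mief2, an adaptor for Dnm1l like Mief1, read 29.8, 22.2, 22.7, 20.2 and 21.6 TPM in fasted MKO muscle, against 21.4, 17.96, 17.9 and 19.3 TPM in fasted WT muscle. MKO replicate 1 stood above the rest and MKO replicate 4 lay below the highest WT library. The log2 difference of 0.27 ± 0.10 (SE; limma adjusted p = 0.0434) was 0.18, with an adjusted p of 0.121, without MKO fasted replicate 1, and the call was lost in the fits without any 1 of 13 libraries.

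Opa1, the GTPase of inner membrane fusion, was not called as deposited, with 19.8, 21.6, 19.5, 20.4 and 22.1 TPM in fasted MKO muscle, against 25.3, 19.5, 19.1 and 19.2 TPM in fasted WT muscle (log2 difference of 0.00, 95% interval -0.20 to 0.21). Relative to the median gene of its library, Opa1 stood at log2 2.08, 2.15, 2.18, 2.28 and 2.27 in fasted MKO muscle, against 2.63, 2.35, 2.33 and 2.73 in fasted WT muscle. All MKO libraries lay below all WT libraries on this scale. Opa1 fell by 0.32 ± 0.09 on the log2 scale (SE; limma adjusted p = 0.0395), and 2.54% of all genes were called lower and 2.64% higher on this scale. The call was lost in the fits without any 1 of 8 libraries, with a change of -0.24 and an adjusted p of 0.0931 without WT fasted replicate 4, -0.28 and 0.0917 without WT fasted replicate 1, and -0.29 and 0.0794 without MKO fasted replicate 1.

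The other 5 genes were not called in fasted muscle on either scale. Oma1, the stress-activated protease that cuts Opa1, read 8.32, 9.16, 9.98, 8.71 and 8.99 TPM in fasted MKO muscle, against 9.34, 6.78, 7.0 and 6.96 TPM in fasted WT muscle. Dnm1l read 22.8, 24.3, 22.3, 23.3 and 26.2 TPM in fasted MKO muscle, against 24.2, 19.5, 19.0 and 19.1 TPM in fasted WT muscle. In both genes WT replicate 1 alone reached into the MKO range, and without it both were called, with adjusted p of 0.00677 for Oma1 and 0.00867 for Dnm1l in limma, against 0.0541 and 0.0595 with it. Mfn1 (log2 0.16 ± 0.13), Mfn2 (0.12 ± 0.10) and Mief1 (0.19 ± 0.11, SE) had overlapping groups.

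The summed level of 6 muscle fiber genes, Myh4, Myh1, Acta1, Ckm, Pvalb and Actn3, was 54646 to 72497 TPM in fasted MKO libraries, against 23720 to 47167 TPM in fasted WT libraries, with the lowest sum in WT fasted replicate 4. Acta1 and Ckm, which are not confined to fast fibers, averaged 28110.5 and 15471.7 TPM in fasted MKO muscle, of a mean sum of 61765.8 TPM. The part of the fiber transcripts in the differences of the 10 genes was not tested. The sums of 7 slow fiber markers (102 to 385 TPM in fasted MKO, 65.0 to 609 TPM in fasted WT) and of 4 endothelial markers (47.2 to 59.2 TPM in fasted MKO, 41.6 to 51.3 TPM in fasted WT) overlapped, as did those of 4 fibroblast and 5 adipocyte markers. The slow fiber sum of 609 TPM was that of WT fasted replicate 4, against 65.0 to 342 TPM in the other fasted WT libraries. In fed muscle the sum of the 6 fiber genes overlapped, at 45060 to 54362 TPM in MKO, against 42059 to 45580 TPM in WT. That of the adipocyte markers did not, at 139 to 157 TPM in MKO, against 100.03 to 134 TPM in WT. Most of it was Fabp4, at a mean of 136 TPM in MKO and 112 TPM in WT, and Adipoq, Plin1, Cidec and Lep each overlapped. The sum of 3 Schwann cell markers did not overlap in fed muscle, at 13.3 to 24.5 TPM in MKO, against 7.42 to 12.99 TPM in WT. These sums are as deposited, where the median log2 change of all genes between the fed genotypes was 0.25.

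**Figure D2:**
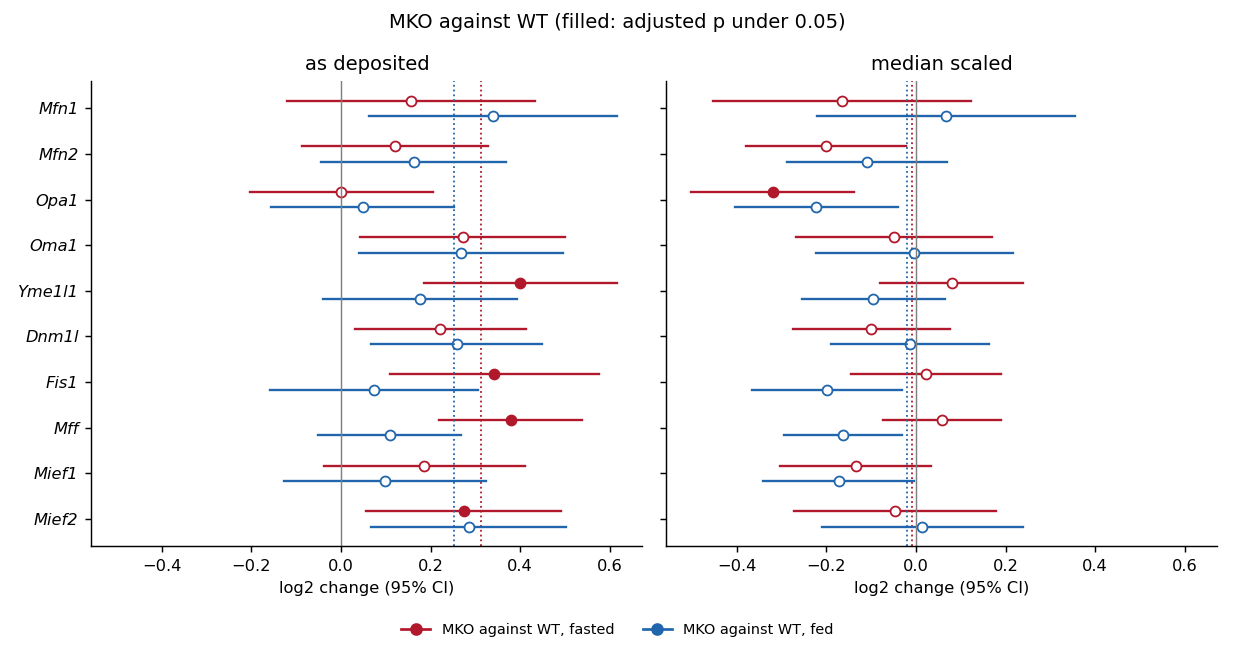
Log2 change of each of the 10 genes for MKO against WT (x axis, with 95% confidence interval) in fasted muscle (red) and fed muscle (blue), as deposited on the left and relative to the median gene on the right. Filled points passed an adjusted p of 0.05 and dotted lines mark the median change of all 12111 genes. As deposited the medians of all genes lie at 0.31 (fasted) and 0.25 (fed), right of 7 and 6 of the 10 genes.

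In fed muscle, no member passed the test between genotypes on either scale. As deposited, all 10 genes were on average above WT, by log2 0.05 to 0.34 with a median of 0.17, against a median of 0.25 over all genes. By limma 0 members were called, against 4.87% of all genes called higher and 0.182% called lower. At an unadjusted p under 0.05, 4 members were higher and none lower, against 4340 and 104 of all 12111 genes. Relative to the median gene, 0 members were called, against 0.289% of all genes called higher and 0.809% called lower. At an unadjusted p under 0.05, 4 members (Opa1, Fis1, Mff and Mief1) were lower and none higher, against 1048 and 437 of all 12111 genes.

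The 4 genes with an unadjusted p under 0.05 as deposited were Mfn1, Oma1, Dnm1l and Mief2. Mfn1 read 27.5, 28.8, 43.0, 36.2 and 33.5 TPM in fed MKO muscle, against 30.5, 23.5, 25.2 and 26.7 TPM in fed WT muscle. Dnm1l read 25.8, 26.5, 29.2, 29.4 and 28.0 TPM in fed MKO muscle, against 24.5, 21.9, 21.4 and 25.3 TPM in fed WT muscle. Mief2 read 25.0, 26.0, 25.2, 22.7 and 25.5 TPM in fed MKO muscle, against 21.8, 18.2, 20.1 and 21.5 TPM in fed WT muscle.

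Dnm1l and Mief2 did not overlap between the fed genotypes. Their log2 differences were 0.26 ± 0.09 and 0.29 ± 0.10 (SE), and their adjusted p of 0.0747 and 0.0803 were 0.0262 and 0.0363 without WT fasted replicate 4, a library that enters this comparison only through the shared estimate of the spread. Yme1l1 did not overlap either (13.9 to 14.8 TPM in fed MKO, 11.95 to 13.7 TPM in fed WT), at log2 0.18 ± 0.10. The share of all genes without overlap between the fed genotypes was not counted. Relative to the median gene all 3 genes overlapped, at log2 -0.01 ± 0.08 (Dnm1l), 0.01 ± 0.11 (Mief2) and -0.09 ± 0.08 (Yme1l1, SE). Oma1 and Mfn1 overlapped on both scales and stood at 0.00 ± 0.10 and 0.07 ± 0.14 relative to the median gene. Where the 2 fed groups were fitted alone, Oma1, Yme1l1, Dnm1l and Mief2 were called higher, with limma adjusted p of 0.0477, 0.0462, 0.0231 and 0.0163, while 4105 of all genes were called higher in place of 590.

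Between fasted and fed muscle, members moved in both directions. Oma1 fell in both genotypes on both scales. Mff fell in WT muscle on both scales, Mief1 and Yme1l1 rose in MKO muscle on both scales, and the mitofusins and Opa1 were not called in either genotype. In MKO muscle 2 members were called higher and 1 lower as deposited, against 18.1% and 15.8% of all genes, and 2 higher and 2 lower relative to the median gene, against 20.2% and 22.7%. In WT muscle 0 members were called higher and 2 lower as deposited, against 15.3% and 20.7% of all genes, and 1 higher and 2 lower relative to the median gene, against 19.9% and 24.6%. The 1 member higher at an unadjusted p under 0.05 in WT muscle as deposited was Mief1, against 2341 of all 12111 genes. The median of the 10 genes was log2 0.00 in MKO and -0.05 in WT muscle as deposited, beside 0.01 and -0.06 over all genes. The sum of 6 fiber genes given above was higher in every fasted than in every fed MKO library and overlapped between fasted and fed WT libraries. Pvalb, 1 of these genes, was lower on average in fasted than in fed MKO muscle (6236 against 6647 TPM). The adipocyte sum was higher in every fasted MKO library (162 to 285 TPM) than in every fed one (139 to 157 TPM). Most of it was Fabp4, at a mean of 194 TPM in fasted and 136 TPM in fed MKO muscle. Cidec was also higher on average after fasting (5.23 against 3.44 TPM). Adipoq (5.31 against 8.44 TPM), Plin1 (0.769 against 2.04 TPM) and Lep (0.632 against 0.695 TPM) were lower on average. The sum of 2 satellite cell markers was lower in every fasted WT library (1.33 to 1.78 TPM) than in every fed one (2.08 to 2.66 TPM). The part of these markers in the changes was not tested.

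Oma1 read 8.32, 9.16, 9.98, 8.71 and 8.99 TPM in fasted MKO muscle, against 11.2, 11.3, 13.2, 10.7 and 11.9 TPM in fed MKO muscle. In WT muscle it read 9.34, 6.78, 7.0 and 6.96 TPM after fasting, against 11.1, 8.41, 8.97 and 10.3 TPM in the fed state. The groups did not overlap in MKO muscle, and in WT muscle fasted replicate 1 lay above fed replicates 2 and 3. Oma1 fell by 0.36 ± 0.10 in MKO (limma adjusted p = 0.01) and by 0.37 ± 0.12 in WT muscle (adjusted p = 0.0171) on the log2 scale (SE), to 0.777 and 0.775 of the fed level. In WT muscle the call was lost without fed replicate 1 (log2 -0.30, adjusted p = 0.0663), fed replicate 4 (-0.34, 0.0535) or fasted replicate 2 (-0.32, 0.058).

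Yme1l1, the other protease that acts on Opa1, read 15.8, 18.2, 16.2, 18.8 and 19.1 TPM in fasted MKO muscle, against 13.98, 13.9, 14.7, 14.8 and 14.7 TPM in fed MKO muscle, with no overlap. It rose by log2 0.28 ± 0.10 (SE; limma adjusted p = 0.0314) in MKO muscle, 1.22-fold. In WT muscle Yme1l1 read 15.1, 13.5, 14.8 and 10.3 TPM after fasting, against 13.03, 13.7, 11.95 and 12.4 TPM in the fed state, a log2 change of 0.06 ± 0.11, which was 0.18, with a limma adjusted p of 0.0825, without WT fasted replicate 4. The MKO call was lost, at adjusted p of 0.05 to 0.0791, without any 1 of 6 MKO libraries as deposited and was kept without each of the 18 libraries relative to the median gene.

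Mff read 18.2, 19.2, 18.6, 18.4 and 18.7 TPM in fasted MKO muscle, against 18.7, 20.5, 20.3, 19.5 and 19.8 TPM in fed MKO muscle. In WT muscle it read 15.3, 14.8, 14.8 and 12.5 TPM after fasting, against 19.4, 17.9, 18.3 and 17.7 TPM in the fed state. Every fasted WT library lay below every fed WT library, while the MKO groups overlapped. Mff fell by 0.36 ± 0.08 in WT muscle on the log2 scale (SE; limma adjusted p = 0.00197), to 0.782 of the fed level, and changed by -0.08 ± 0.07 in MKO muscle. Relative to the median gene it fell by 0.36 ± 0.07 in WT muscle (limma adjusted p = 0.000246). In MKO muscle it changed by -0.14 ± 0.06 on that scale (limma unadjusted p = 0.0304, adjusted p = 0.0663).

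Mief1 read 8.40, 6.97, 6.71, 6.86 and 6.66 TPM in fasted MKO muscle, against 5.84, 5.54, 5.35, 5.22 and 5.32 TPM in fed MKO muscle. In WT muscle it read 6.80, 6.78, 6.76 and 4.80 TPM after fasting, against 4.76, 4.80, 5.49 and 5.31 TPM in the fed state. The MKO groups did not overlap, and among fasted WT libraries replicate 4 alone stayed at the fed level as deposited. Relative to the median gene this library stood at log2 0.76, within the fasted WT range of 0.75 to 0.85. Fed WT libraries lay at 0.38 to 0.63 on that scale. Mief1 rose by log2 0.37 ± 0.10 in MKO muscle (SE; limma adjusted p = 0.00767), 1.297-fold. In WT muscle the change of 0.29 ± 0.11 had an adjusted p of 0.0547 as deposited, 0.011 relative to the median gene (log2 0.28) and 0.000957 without WT fasted replicate 4 (log2 0.41). Mief1 shares 213 bases with a short protein-coding gene annotated on the same strand, and reads of the 2 genes cannot be told apart there.

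Dnm1l was called with fasting in MKO muscle only relative to the median gene, where it fell by 0.28 ± 0.08 (SE; limma adjusted p = 0.00854). As deposited it read 22.8, 24.3, 22.3, 23.3 and 26.2 TPM in fasted MKO muscle, against 25.8, 26.5, 29.2, 29.4 and 28.0 TPM in fed MKO muscle (log2 -0.22, adjusted p = 0.0505). The groups overlapped by 1 library on each side. In WT muscle the change was -0.19 ± 0.10 as deposited and -0.19 ± 0.09 relative to the median gene, and after median scaling it was -0.27, with an adjusted p of 0.0118, without WT fasted replicate 4. Whether the authors counted by strand was not given in the sources used here, and an antisense gene is annotated across 9757 bases of Dnm1l.

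The other 5 genes were not called with fasting. Mfn1 averaged 34.8 ± 2.19 TPM in fasted MKO, against 33.8 ± 6.23 TPM in fed MKO muscle, and 31.6 ± 5.80 TPM in fasted WT, against 26.5 ± 2.97 TPM in fed WT muscle (SD). Mfn2 changed by log2 0.07 ± 0.09 in MKO and 0.11 ± 0.10 in WT muscle, and Opa1 by -0.05 ± 0.09 and 0.00 ± 0.10 (SE). Fis1 changed by 0.07 ± 0.10 in MKO and -0.20 ± 0.12 in WT muscle, and Mief2 by -0.11 ± 0.10 and -0.09 ± 0.11. Relative to the median gene Fis1 changed by 0.01 ± 0.08 in MKO and -0.21 ± 0.08 in WT muscle, where fasted and fed libraries did not overlap. The limma adjusted p in WT muscle was 0.0546 on that scale, and 0.0389 to 0.153 with 1 library left out. For Opa1 the 95% intervals, -0.24 to 0.14 in MKO and -0.22 to 0.21 in WT muscle, leave room for changes of about the size seen in Dnm1l.

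**Figure D3:**
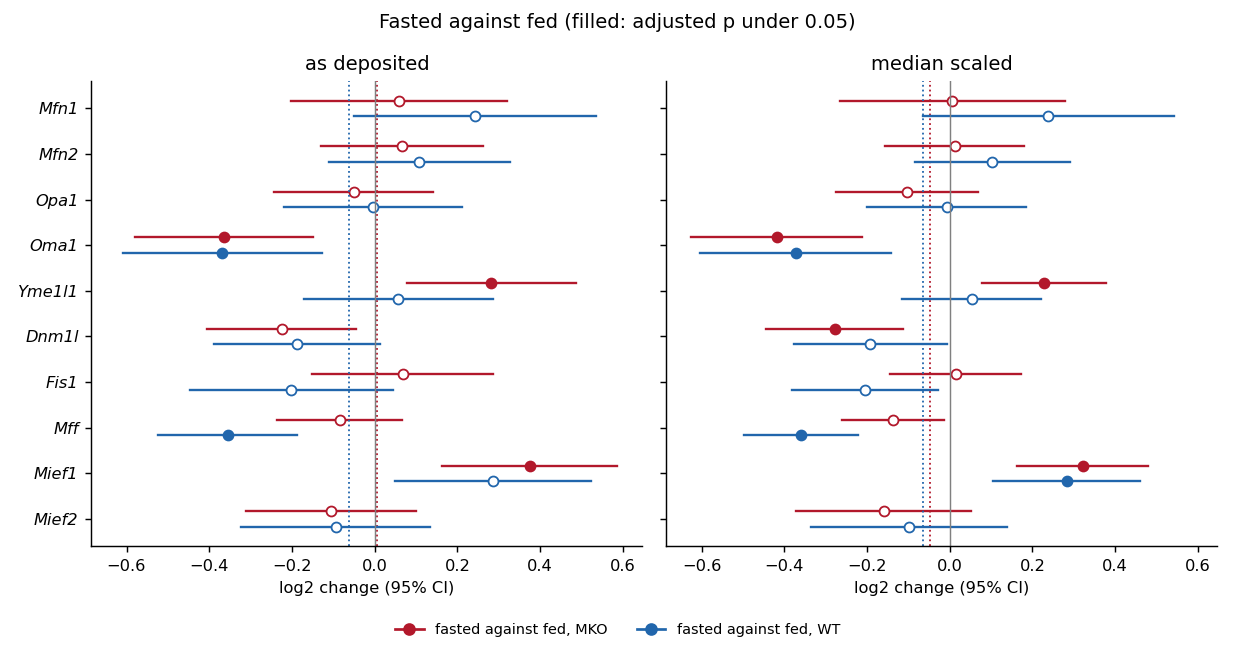
Log2 change of each of the 10 genes for fasted against fed muscle (x axis, with 95% confidence interval) in MKO (red) and WT (blue), as deposited on the left and relative to the median gene on the right. Filled points passed an adjusted p of 0.05 and dotted lines mark the median change of all 12111 genes. Oma1 is filled in both genotypes and on both scales, at -0.36 and -0.37 as deposited.

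The fasting response of the 10 genes was not shown to differ between genotypes. By limma 0 members were called for the interaction, against 0.033% of all genes called higher and 0.0% called lower as deposited, and 0.0908% and 0.0248% relative to the median gene. The 1 member with an unadjusted p under 0.05 on either scale was Mff, whose change with fasting in MKO minus that in WT was log2 0.27 ± 0.11 as deposited (SE; unadjusted p = 0.0215, adjusted p = 0.455) and 0.22 ± 0.09 relative to the median gene (adjusted p = 0.344). For Yme1l1 the same difference was 0.22 ± 0.15, for Fis1 0.27 ± 0.16 and for Oma1 0.00 ± 0.15. At an unadjusted p under 0.05 for the interaction as deposited, 866 of all 12111 genes were higher and 237 lower. Mff was called with fasting in WT muscle and Yme1l1 in MKO muscle, and that alone does not show that the genotypes responded differently.

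Ratios of 2 members within a library do not depend on how libraries are scaled, and 3 pairs were compared in 4 ways. The ratio of Oma1 to Yme1l1, the proteases that cut Opa1, was 0.528, 0.503, 0.616, 0.462 and 0.472 in fasted MKO muscle, against 0.804, 0.808, 0.893, 0.723 and 0.812 in fed MKO muscle. All fasted MKO libraries lay below all fed MKO libraries. The log2 ratio fell by 0.65 ± 0.09 (SE), with an exact two-sided permutation p of 0.00794, the smallest that 5 against 5 libraries allow, and 0.0476 after adjustment over the 12 comparisons. In WT muscle the ratio was 0.618, 0.502, 0.474 and 0.675 after fasting, against 0.852, 0.615, 0.751 and 0.831 in the fed state, a log2 difference of -0.43 ± 0.16 with overlapping groups (exact permutation p = 0.0857, adjusted 0.206).

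The ratio of Mief2 to Mief1, the paralogous adaptors of Dnm1l, was 3.55, 3.18, 3.38, 2.95 and 3.24 in fasted MKO muscle, against 4.27, 4.70, 4.71, 4.36 and 4.79 in fed MKO muscle. The groups did not overlap, and the log2 ratio fell by 0.49 ± 0.06 (SE; exact permutation p = 0.00794, adjusted 0.0476). In WT muscle it was 3.15, 2.65, 2.64 and 4.01 after fasting, against 4.58, 3.80, 3.67 and 4.05 in the fed state, with WT fasted replicate 4 within the fed range (log2 difference -0.39 ± 0.16, exact permutation p = 0.0857, adjusted 0.206). For 4 against 4 libraries the smallest p is 0.0286, and whether the ratios respond differently in MKO and WT muscle was not tested.

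The ratio of Mfn2 to Mfn1 averaged 2.67 ± 0.251 in fasted MKO, 2.74 ± 0.275 in fasted WT, 2.67 ± 0.307 in fed MKO and 3.001 ± 0.1701 in fed WT muscle (SD). None of its 4 comparisons passed, at exact permutation p of 0.127 to 0.952. Between genotypes none of the 3 ratios passed after adjustment, and the smallest p was that of Mief2 to Mief1 in fed muscle, with 4.57 ± 0.232 in MKO and 4.02 ± 0.402 in WT (log2 difference 0.19 ± 0.08, exact permutation p = 0.0397, adjusted 0.159).

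**Figure D4:**
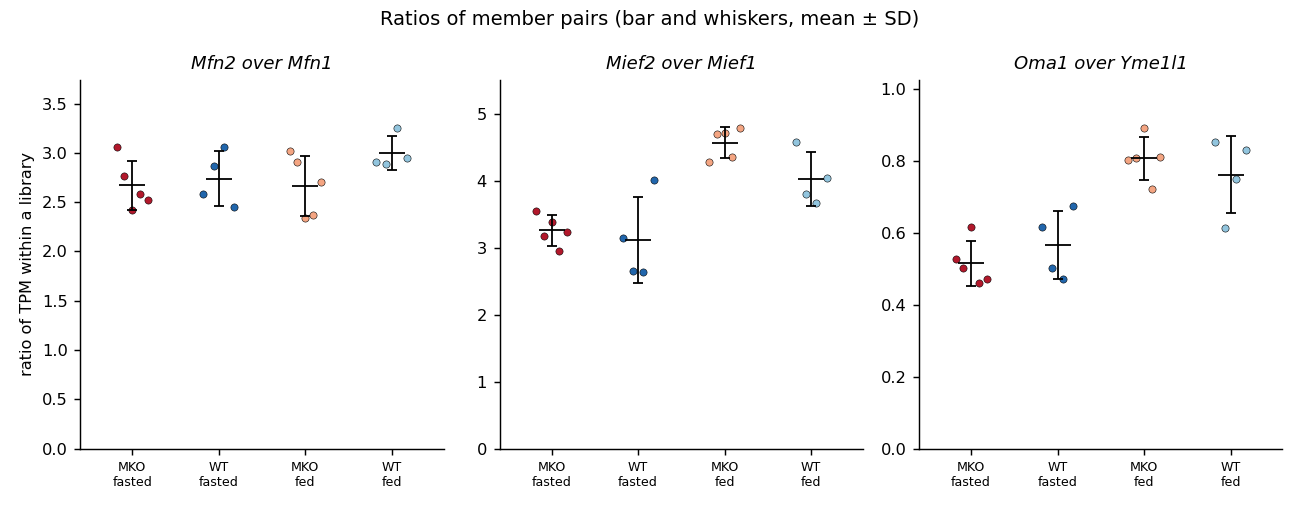
Ratio of TPM of 2 members within each library (y axis, from 0) in fasted MKO, fasted WT, fed MKO and fed WT muscle (x axis), for Mfn2 over Mfn1, Mief2 over Mief1 and Oma1 over Yme1l1. Points are libraries, with mean ± SD. Oma1 over Yme1l1 lay between 0.462 and 0.616 in fasted MKO libraries and between 0.723 and 0.893 in fed MKO libraries.

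Genes around this machinery were read from 5 lists, whose counts stand against 18.1% of all genes called higher and 15.8% called lower with fasting in MKO muscle, and 15.3% and 20.7% in WT muscle, as deposited. Of 18 tested regulators of fusion and fission, 1 rose and 4 fell with fasting in MKO muscle, and 2 rose and 6 fell in WT muscle. Gdap1, an outer membrane protein linked to fission, averaged 2.81 ± 0.268 TPM in fasted MKO, against 6.97 ± 0.916 TPM in fed MKO muscle, and 2.55 ± 0.936 TPM in fasted WT, against 9.36 ± 1.14 TPM in fed WT muscle (SD). It fell by 1.27 ± 0.18 in MKO (limma adjusted p = 2.69e-05) and by 1.91 ± 0.20 in WT muscle (adjusted p = 8.94e-07) on the log2 scale (SE), more than any of the 10 members. Opa3, a mitochondrial membrane protein, fell by 0.44 in MKO and 0.59 in WT muscle. Usp30, a deubiquitinase of the outer membrane that opposes mitophagy, rose by log2 0.52 in MKO and 0.67 in WT muscle.

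Of 11 tested mitophagy genes, 8 rose and 1 fell with fasting in MKO muscle, and 7 rose and 1 fell in WT muscle, beside 18.1% and 15.3% of all genes called higher. Bnip3, a receptor for mitophagy, averaged 292 ± 41.9 TPM in fasted MKO, against 117 ± 3.36 TPM in fed MKO muscle, and 256 ± 27.8 TPM in fasted WT, against 109 ± 3.88 TPM in fed WT muscle (SD), at log2 1.31 ± 0.09 and 1.23 ± 0.10 (SE). Sqstm1, an autophagy adaptor, rose by log2 1.29 and 1.16. Fundc1, another mitophagy receptor, moved against them and fell by 0.43 in MKO (limma adjusted p = 0.000628) and by 0.77 in WT muscle (adjusted p = 4.7e-06).

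Of 7 genes for the transport of mitochondria along microtubules, 0 rose in either genotype, 4 fell with fasting in MKO and 5 in WT muscle as deposited, and 5 in each relative to the median gene, where 22.7% and 24.6% of all genes were called lower. At an unadjusted p under 0.05 none of them was higher by limma. Trak1, which links mitochondria to kinesin, fell by 0.63 in MKO and 0.61 in WT muscle, and Trak2 by 0.62 and 0.47. The 12 MICOS and cristae genes had 1 rise (Tmem11) and 0 falls in MKO muscle and 0 rises and 2 falls (Minos1 and Apoo) in WT muscle as deposited, shares below those of all genes. Of the 10 inner membrane proteases and prohibitins, 0 changed in MKO and 1, Lonp1, rose in WT muscle as deposited. Relative to the median gene 1 of them, Clpp, rose in MKO and 4, Afg3l2, Lonp1, Clpp and Phb2, rose in WT muscle, where 20.2% and 19.9% of all genes were called higher.

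**Figure D5:**
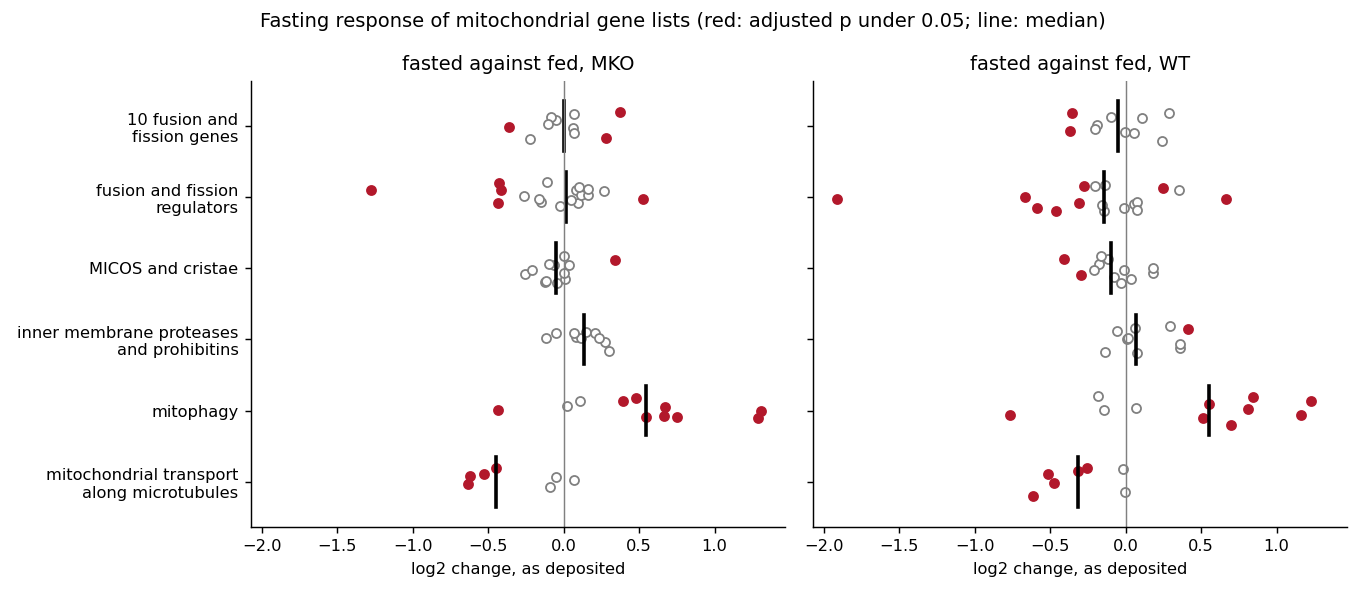
Log2 change with fasting as deposited (x axis) of the 10 fusion and fission genes and of the genes of 5 related lists (y axis), in MKO muscle on the left and WT muscle on the right. Each point is 1 gene, red where the adjusted p was under 0.05, and black lines are list medians, which were 0.54 in MKO and 0.55 in WT muscle for mitophagy and -0.45 and -0.31 for transport.

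Between genotypes the lists followed the scale used. In fasted muscle 7 of 18 regulators, 5 of 11 mitophagy genes, 3 of 7 transport genes, 2 of 12 MICOS and cristae genes and 1 of 10 proteases and prohibitins were called higher in MKO as deposited, against 38.9% of all genes, and the list medians were 0.12 to 0.36 around the 0.31 of all genes. Relative to the median gene 0 genes of the 5 lists were called higher, and 1 was called lower, Immt, the core subunit of MICOS (log2 -0.40 ± 0.10, limma adjusted p = 0.0268). In fed muscle 2 genes of the lists were called higher as deposited, Inf2 and Kif1b, and Gdap1 was lower relative to the median gene (log2 -0.69 ± 0.15, limma adjusted p = 0.03).

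Among the 10 genes, levels relative to the median gene were most alike over the 18 libraries for Oma1 and Dnm1l (Pearson r = 0.876), Mfn2 and Opa1 (0.798), Oma1 and Mff (0.78) and Mfn1 and Mfn2 (0.763), and most opposed for Oma1 and Mief1 (-0.677). The libraries share groups and scaling, and these values are a description. Of 5179 other named genes, those most like Oma1 were Ric8b (0.94), Mterf2 (0.928) and Nab1 (0.926), and those most like Mff were Mrpl42 (0.945), Rdh14 (0.941) and Deb1 (0.94). Those most like Yme1l1 were Cops2 (0.914), Zranb2 (0.865) and Eif3e (0.864), and those most like Mief1 were Ctdsp2 (0.94), Rnf167 (0.907) and Fiz1 (0.9).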

How the data were processed

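RNA-seq of whole muscle was read from 1 deposited table of TPM per gene, which the authors made in CLC Genomics Workbench on mouse build GRCm38 (by the labels with a SMARTER library kit, by the methods with a ligation protocol). Its version, annotation and strand setting were not given in the sources used here. Replicates were not pooled, and 0 value columns were unmapped. TPM keep no read depth, so the precision of single values is unknown. Columns of the authors' own fold changes and p-values for 4 comparisons were not used.

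Genes at 0.5 TPM or more in at least 4 of 18 libraries (12111) entered a limma fit (version 3.58.1, R 4.3.3) of log2(TPM + 0.1) with 4 group means, a mean-variance trend and Benjamini-Hochberg adjustment over all genes at 0.05. A fold is on that scale, which understates changes of low genes. The fit was repeated with each library shifted to 1 median. Scripts were tested on simulated data. Ratios of members were compared by an exact two-sided permutation test of the absolute difference in means, adjusted over 12 comparisons.

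Libraries were grouped by the labels. In 153 pairs of libraries none was a copy of another. Replicate numbers did not pair the libraries. The 10 genes, the 5 lists and the markers were chosen with earlier results of these data known. The text names every member, up to 4 genes of a list with the smallest adjusted p in a comparison, the genes behind small counts, markers, and the 3 genes most like each member called in 1 direction on both scales. Alternatives were another scaling, filter and pseudocount, a replicate block, groups fitted alone, TPM without mitochondrial genes and each library left out. The replicates are separate mice.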

Additional observations from a re-analysis of the deposited data

Results flagged for a closer look

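Of 52 sets of 4 or 5 values looked at (levels and ratios of the 10 genes in each group), 5 held 1 library far from the others, by the gap to its neighbour over the range of the group. Chance flags about 1 in 20 such sets. WT fasted replicate 1 was the highest of its group for Opa1 (25.3 TPM), Oma1 (9.34 TPM) and Dnm1l (24.2 TPM), which play their parts in inner membrane fusion, Opa1 processing and fission. Mief1, the adaptor of Dnm1l, was highest in MKO fasted replicate 1 (8.40 TPM) among fasted MKO libraries and lowest in WT fasted replicate 4 (4.80 TPM) among fasted WT libraries. These levels were read as deposited only. Relative to the median gene, WT fasted replicate 4 was the highest of its group for Opa1 (log2 2.73), Oma1 (1.28) and Dnm1l (2.73). Its Mief1 level (0.76) lay within the fasted WT range there, and MKO fasted replicate 1 was still highest for Mief1 (0.86). No difference in the fasting response between genotypes was picked out among the 10 genes.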

How the results depend on the processing

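Of the 9 calls of members as deposited (4 genotype calls in fasted muscle, 2 fasting calls in WT and 3 in MKO), 9 were kept with a filter of 2 TPM or with pseudocounts of 0.01 or 1, 8 without a filter and 8 with a replicate block. They numbered 5 after median scaling, 5 after quantile normalization and 4 in TPM without mitochondrial genes. With the compared groups fitted alone, Mff between genotypes in fasted muscle was kept (limma adjusted p = 0.04). The 3 fasting calls in MKO muscle were also kept there, at 0.00225 (Oma1), 0.00727 (Yme1l1) and 0.00235 (Mief1). The count of members called between genotypes in fasted muscle was 4, and 1 after median scaling, 1 after quantile normalization and 1 with the groups fitted alone. In TPM without mitochondrial genes it was 3, all of them lower in MKO (Mfn2, Opa1 and Mief1), where 1111 of 12098 genes were called lower and 191 higher. In fed muscle it was 0, and 4 fitted alone. With fasting in WT muscle it was 2, and 4 after quantile normalization and 0 fitted alone. With fasting in MKO muscle it was 3, and 5 after quantile normalization. Leaving out 1 library at a time gave 2 to 6 members between genotypes in fasted and 0 to 2 in fed muscle, and 1 to 3 with fasting in WT and 2 to 4 in MKO muscle. Relative to the median gene these counts were 0 to 1 between genotypes in fasted muscle, 3 to 4 with fasting in WT and 4 to 5 in MKO muscle.

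Among values called in at least 1 of the 2 fits compared, signs turned between genotypes in fasted muscle under 3 other scalings. After median scaling Opa1 was at log2 -0.32 and Mief2 at -0.0466, and after quantile normalization at -0.31 and -0.0374. In TPM without mitochondrial genes Mfn2 was at -0.33, Opa1 -0.45, Yme1l1 -0.0499, Fis1 -0.11, Mff -0.0718, Mief1 -0.26 and Mief2 -0.18. The cause was not tested. Signs also turned among values not called in either fit. In fed muscle 10 members were above 0 between genotypes as deposited and 2 after median scaling. In the fits without 1 library, 35 such signs turned as deposited, Opa1 between genotypes in fasted muscle among them (log2 -0.04 to 0.10). Signs turned in such fits relative to the median gene as well, Mfn1 between genotypes in fed muscle among them (log2 -0.03 to 0.12).

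Replicate numbers did not pair the libraries (correlations of same-numbered deviations of -0.14 to 0.15). With the replicate block the members called were 0 in fed and 4 in fasted muscle between genotypes, 2 with fasting in WT and 2 in MKO muscle, where Yme1l1 had an adjusted p of 0.0502, and 0 for the interaction. With the replicate block and median scaling together, 0 members were called between genotypes in fasted muscle. Over all genes, 590 were called higher between the fed genotypes as deposited, 4105 with those groups fitted alone, 191 without a filter and 102 with the replicate block. In fasted muscle 4713 were called higher, and 1940 with the groups fitted alone. The 2 ratios called were kept in each fit with 1 library left out and with 0.1 TPM added. TPM hold no depth, so no limit from counting can be given.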
